A study of Drosophila melanogaster with 12 samples.

Results

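The genes of superoxide and peroxide removal and of the Nrf2/Keap1 pathway were followed in wing imaginal discs, the larval epithelial sacs that form the adult wings, of Drosophila melanogaster. The list held 9 named genes. They are the superoxide dismutase genes Sod1, Sod2 and Sod3, the catalase gene Cat, the transcription factor gene cnc, its inhibitor gene Keap1, the glutathione synthesis genes Gclc and Gclm, and the oxidase gene Duox. For 8 of them the deposited table of 17158 FlyBase identifiers had a row that the reference tables paired with the symbol. Duox was not paired and is not analysed here.

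Larvae in the third instar, grown on standard media, gave 12 libraries of poly(A) RNA, 2 in each of 6 groups, with 40 discs in a library. Discs left to regenerate after induced apoptosis and undamaged control discs kept in the same conditions were collected at 0 h, 15 h and 25 h after induction. The labels call the regenerating and control discs separate genotypes and give no allele, driver or strain for either, so the cells that died are not known from them. The table gives 1 FPKM value per gene and group, fragments scaled to transcript length and library size, merged over the replicates by the authors. The differences below therefore come without a spread, an interval or a p-value, and replicates cannot be used to check them.

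Superoxide dismutases turn superoxide into hydrogen peroxide, and catalase breaks hydrogen peroxide down to water and oxygen. CncC, a long protein made from some transcripts of cnc, is the fly counterpart of mammalian Nrf2, and Keap1 binds it and promotes its destruction. Oxidants release CncC from Keap1, after which it activates detoxification and glutathione synthesis genes. Reactive oxygen species arise at damaged wing discs and are known to act upstream of stress kinases during regeneration.

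A gene was called higher or lower where log2 of the ratio of (FPKM + 1) was at least 1 in size and 1 or both columns held at least 1 FPKM. The added 1 makes changes of low genes look smaller than they are. By this rule regenerating discs had 0 of the 8 genes higher and 0 lower than control discs at each of the 3 times, although all 8 passed the filter each time. Over all genes the rule called 7.47% higher and 3.04% lower at 0 h, 5.95% and 2.2% at 15 h, and 9.11% and 3.19% at 25 h. Among genes above 0 in both columns at 25 h, as all 8 were, it called 1.63% higher. The nearest to the rule was Cat at 15 h, with a log2 ratio of 0.996, followed by Sod3 at 0 h with 0.92.

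Most of the 8 genes nevertheless stood above control discs, as did most genes of the table. At 0 h all 8 had a log2 ratio above 0, against 87.7% of the 8202 genes tested. At 15 h it was all 8, against 75.6% of 8095 genes, and at 25 h 7, against 59.1% of 8148 genes. The median log2 ratio of the 8 genes was 0.35, 0.46 and 0.31 in order of time, beside 0.47, 0.35 and 0.10 for all genes tested. Median-of-ratios scaling, which removes the shift shared by most genes, left 3, 4 and 7 of the 8 genes above 0, beside 48%, 49.6% and 55.5% of all genes. Their scaled median log2 ratio was then -0.12, 0.07 and 0.27, beside -0.02, -0.01 and 0.06 for all genes. After this scaling 0 of the 8 genes were again called at each time, beside 2.34% of all genes higher and 5.46% lower at 0 h, 1.64% and 4.01% at 15 h, and 8.47% and 3.51% at 25 h. The direction of a small difference at 0 h or 15 h thus depends on the scaling. Scaling columns to the same sum instead turned 0 of the 8 directions at 0 h, 15 h or 25 h.

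**Figure D1:**
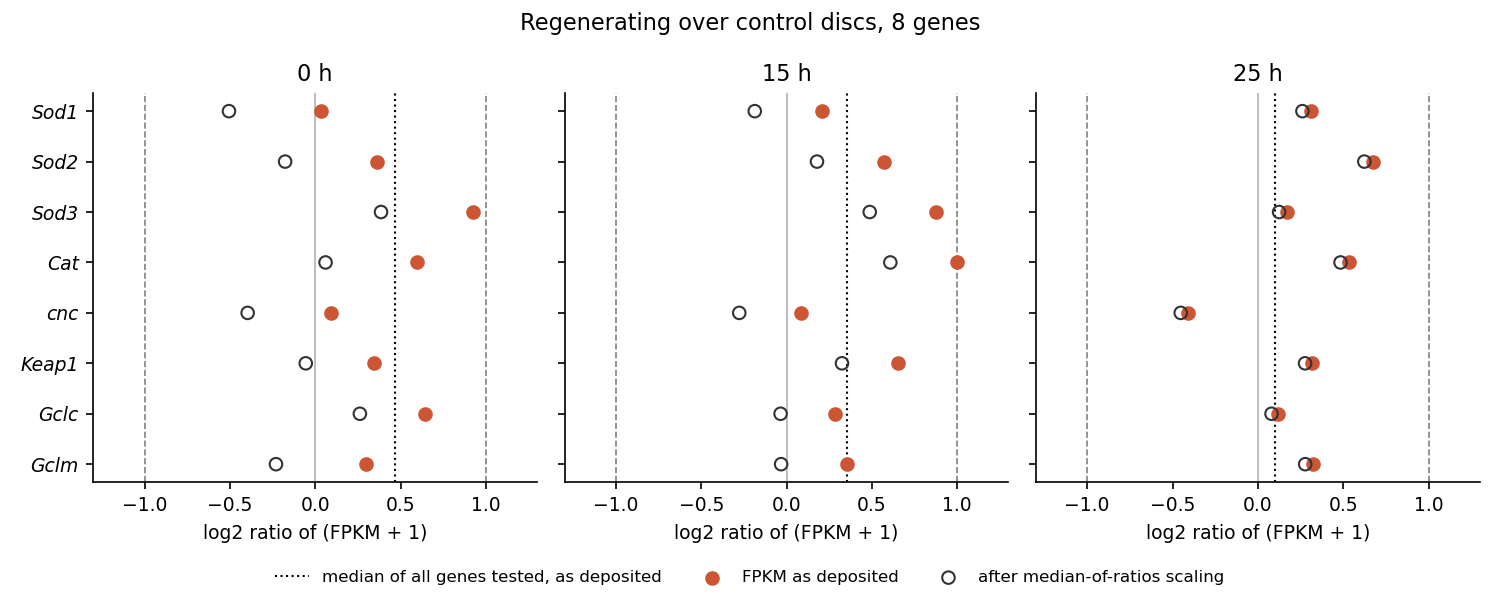
Log2 ratios of (FPKM + 1), regenerating over control discs, for the 8 genes at 0 h, 15 h and 25 h. Filled points are values as deposited, open points values after median-of-ratios scaling, the dotted line is the median of all genes tested and the dashed lines mark a log2 ratio of 1 in either direction. No point lies past a dashed line, Cat at 15 h is closest with 0.996, and scaling moves the points further at 0 h and 15 h than at 25 h.

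Several features of the table bear on these values. Control values at 0 h carry 2 decimals or fewer, unlike the other columns, so they may come from 1 library or from rounding, which touches every ratio at 0 h. In the other 5 columns decimal points had been lost and were restored, for 20 of the 48 values of the 8 genes. Control discs at 25 h had 9462 genes listed at 0, against 7465 to 8538 in the other columns, and none of the 8 genes was at 0 anywhere. All 14 listed wing disc markers were above 0 in every column, with summed levels between 194 and 373 FPKM. Of 8 genes that mark other discs or segments 4 stayed below 1 FPKM, and the highest of the others were so and eya. Markers of fat body, a separate larval tissue, summed to 260.1, 7.66 and 56.6 FPKM in control discs at 0 h, 15 h and 25 h and to 407, 149 and 720.4 FPKM in regenerating discs. Of the 9 fat body genes, 4 were higher at 0 h and 7 at 15 h and at 25 h. After median-of-ratios scaling 2 were higher and 1, Fbp2, lower at 0 h, and 7 were again higher at 15 h and at 25 h, against the shares of all genes given above. Yp1 was at 0 throughout, and the part of these genes in the values below was not tested. Of 10 markers of hemocytes, the blood cells, 7, 6 and 6 passed the filter in order of time. Of these 0 were called at 0 h and 15 h, and PPO1 and PPO2 were higher at 25 h, where control discs listed PPO2 at 0. This stands beside 9.11% of all genes higher at 25 h. Among the 5 markers above 0 in both columns then, PPO1 alone was higher, beside 1.63% of all such genes. All 10 markers summed to between 32.9 and 55.8 FPKM, with Ppn and crq the highest in every column. Markers of adult muscle precursors, cells attached to the disc, summed to between 34.2 and 61.2 FPKM. Of these 7 genes 6 passed the filter at 25 h, and twi and Him were higher. The rule called 9.11% of all genes higher at 25 h, and 1.63% of genes above 0 in both columns, as these 6 were. Of 6 listed tracheal markers btl and dys were not matched. Of the other 4, 0 were called at any time, against the shares of all genes given above. In whole discs, fewer cells of a type and less RNA per cell cannot be told apart.

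Sod1 (FBgn0003462, chromosome 3L, 11112281 to 11113740, minus strand, BDGP6.54) encodes the copper and zinc superoxide dismutase of the cytosol. Control discs held 1480.1 FPKM at 0 h, 1022 FPKM at 15 h and 1008 FPKM at 25 h, and regenerating discs held 1518, 1179 and 1249 FPKM. Both kinds of disc were highest at 0 h, and Sod1 was above 98.1% to 98.7% of the genes above 0 in every column. The regenerating value was the higher at each time, yet the columns overlapped, since control discs at 0 h exceeded regenerating discs at 15 h and 25 h. Log2 ratios of regenerating over control were 0.04, 0.21 and 0.31. After scaling they were -0.51, -0.19 and 0.26, so the direction at 0 h and 15 h turned.

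Sod2 (FBgn0010213, chromosome 2R, 16772785 to 16773915, minus strand) encodes the manganese enzyme of mitochondria. Control discs held 235, 204 and 213 FPKM in order of time and regenerating discs 302, 304 and 340.2 FPKM. The 3 regenerating values lay above the 3 control values, with little change over time in either series as deposited. The log2 ratio widened from 0.36 at 0 h to 0.57 at 15 h and 0.67 at 25 h, the largest of the 8 genes at 25 h. There 87.5% of all genes tested had a lower ratio. After scaling the ratios were -0.18, 0.18 and 0.62, and the columns overlapped because scaled control discs at 0 h reached 329 FPKM. Scaled control discs then stood at 219 FPKM at 15 h and 200 FPKM at 25 h.

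Sod3 (FBgn0033631, chromosome 2R, 11380347 to 11384114, minus strand) encodes the extracellular copper and zinc enzyme. In control discs its level was 114 FPKM at 0 h, 184 FPKM at 15 h and 225 FPKM at 25 h. Regenerating discs were at 216, 339 and 254 FPKM. The regenerating discs at 15 h were the highest of the 6 columns, 2.98 times the lowest, the control discs at 0 h, which was the widest span among the 8 genes as deposited. After scaling the span was 1.73 times, and that of Sod1 was the widest at 2.19 times. Log2 ratios were 0.92, 0.88 and 0.17, so the gap was wide at 0 h and 15 h and narrow at 25 h, when regenerating discs stood below their own value at 15 h. After scaling they were 0.39, 0.49 and 0.12. Of all genes tested, 90.3% at 0 h and 89.8% at 15 h had a lower ratio than Sod3.

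Cat (FBgn0000261, chromosome 3L, 18822604 to 18828188, plus strand) encodes catalase, the peroxisomal enzyme of hydrogen peroxide. It was listed at 55.1, 58.6 and 75.2 FPKM in control discs and at 83.8, 118 and 109 FPKM in regenerating discs. Each regenerating value exceeded each control value, and this held after median-of-ratios scaling, with scaled regenerating values of 80.6, 96.0 and 99.2 FPKM against 77.3, 62.6 and 70.6 FPKM. At 15 h the FPKM was 2.01 times that of control discs, and 93.9% of genes had a lower log2 ratio. The log2 ratios were 0.59 at 0 h, 0.996 at 15 h and 0.53 at 25 h, and 0.06, 0.61 and 0.48 after scaling.

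**Figure D2:**
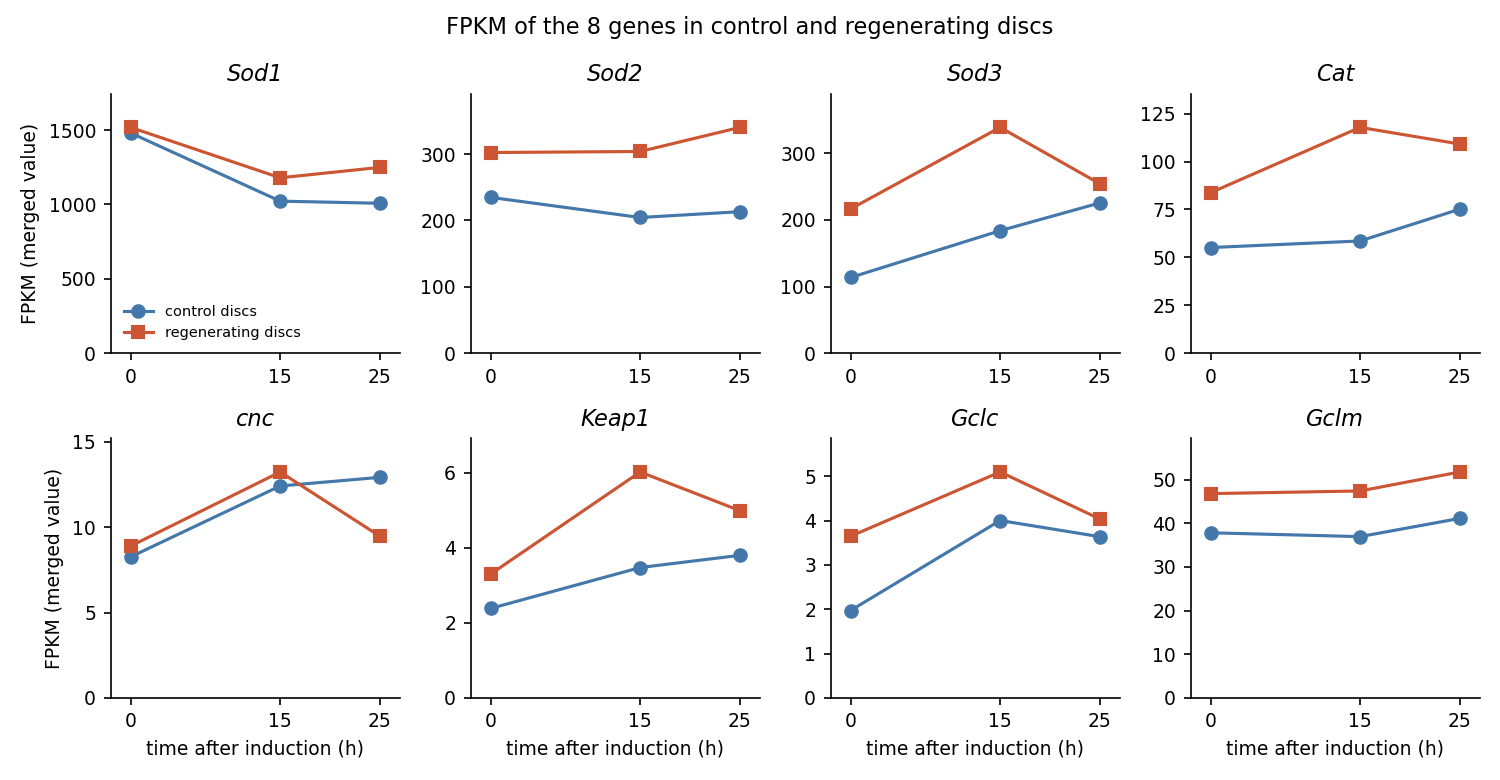
FPKM of the 8 genes against time after induction in h, 1 panel per gene with axes from 0. Circles are control discs and squares regenerating discs, each the authors' merged value. Squares lie above all circles for Sod2, Cat and Gclm, and for cnc the square at 25 h, 9.47 FPKM, lies below the circle, 12.9 FPKM.

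Among the pathway's regulators, cnc (FBgn0262975, chromosome 3R, 23185580 to 23226711, minus strand) stood at 8.26, 12.4 and 12.9 FPKM in control discs. In regenerating discs it stood at 8.89, 13.2 and 9.47 FPKM. The pair of values was close at 0 h and 15 h, and at 25 h cnc was the one gene of the 8 with a negative ratio, -0.41, below which lay 15.5% of all genes. After scaling its ratio was negative at all 3 times, at -0.40, -0.28 and -0.45, and the 3 regenerating columns lay below the 3 control columns. The annotation gives cnc 16 transcripts, and a gene-level value does not separate those for CncC from the shorter forms. It shares 63 exonic bases with Irk1 on the other strand, and the labels do not state how reads there were assigned.

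Keap1 (FBgn0038475, chromosome 3R, 17073942 to 17079945, minus strand), whose mammalian counterpart delivers Nrf2 to a Cul3 ubiquitin ligase, was low. It was at 2.38, 3.47 and 3.80 FPKM in control discs and at 3.30, 6.02 and 4.99 FPKM in regenerating discs. Only 12.8% to 28.6% of genes above 0 had a lower level in the 6 columns. The regenerating discs were the higher at each time, most at 15 h, with log2 ratios of 0.35, 0.65 and 0.32, and -0.06, 0.32 and 0.28 after scaling. The columns overlapped, since regenerating discs at 0 h stood below control discs at 15 h and 25 h.

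Gclc (FBgn0040319, chromosome X, 8102181 to 8116147, minus strand) encodes the catalytic subunit of glutamate-cysteine ligase, which carries out the rate-limiting step of glutathione synthesis. Its levels were 1.97, 4.0 and 3.64 FPKM in control and 3.65, 5.10 and 4.04 FPKM in regenerating discs. The control value at 0 h was the lowest of the 6. The log2 ratio was 0.65 at 0 h, 0.29 at 15 h and 0.12 at 25 h, and 0.26, -0.03 and 0.08 after scaling. Gclm (FBgn0046114, chromosome 3R, 22685006 to 22686510, minus strand), the modifier subunit of the same enzyme, was about 9.24 to 19.2 times as high per length. It stood at 37.8, 37.0 and 41.1 FPKM in control and 46.8, 47.4 and 51.8 FPKM in regenerating discs, the flattest of the 8 genes with a highest value 1.40 times the lowest, and 1.37 times after scaling. Its log2 ratios were 0.30, 0.35 and 0.32 as deposited, with the 3 regenerating values above the 3 control values, and -0.23, -0.03 and 0.28 after scaling.

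The 3 regenerating columns lay above the 3 control columns for 3 of 8 genes, Sod2, Cat and Gclm, and below them for 0. Of 8619 genes with at least 1 FPKM in a column, 22.1% lay above in this way and 1.82% below. After median-of-ratios scaling 1 of 8, Cat, lay above and 1, cnc, below, beside 9.07% and 7.03% of all genes. With columns scaled to the same sum the 3 genes above were again Sod2, Cat and Gclm, beside 20.2% of all genes above and 1.64% below.

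Ratios between genes of the same column do not depend on how columns are scaled. Sod1 made up 80.9%, 72.5% and 69.7% of the summed FPKM of the 3 superoxide dismutase genes in control discs and 74.5%, 64.7% and 67.8% in regenerating discs. The share of Sod3 was 6.21%, 13.0% and 15.6% in control discs and 10.6%, 18.6% and 13.8% in regenerating discs. Sod3 thus held the larger share in regenerating discs at 0 h and 15 h and the smaller at 25 h, while Sod2 held the larger at each time, 14.8%, 16.7% and 18.5% against 12.8%, 14.5% and 14.7%. Sod1 per Cat was 26.8, 17.4 and 13.4 in control discs and 18.1, 10.01 and 11.4 in regenerating discs.

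Of the 28 possible pairs of genes, 5 had within-column ratios in regenerating discs that lay wholly to 1 side of those in control discs. Over all pairs of the 7484 genes above 0 in every column this held for 17.2%, so the 5 pairs are close to the background and are given as values. The 7 pairs with cnc made up 4 of the 5, and paired with each other gene of the table cnc was apart in this way for 42.4%. The ratio of cnc to Keap1 was 3.47, 3.58 and 3.40 in control discs and 2.70, 2.20 and 1.90 in regenerating discs. The ratio of cnc to Gclc was 4.19, 3.10 and 3.55 against 2.44, 2.60 and 2.35. Cat per cnc was 6.68, 4.72 and 5.82 in control and 9.42, 8.90 and 11.5 in regenerating discs, and Sod3 per cnc was 13.7, 14.8 and 17.4 against 24.3, 25.6 and 26.8. The fifth pair was Sod2 per Gclm, at 6.20, 5.53 and 5.18 against 6.46, 6.41 and 6.57. These ratios show unequal change of the genes of a pair, and which of them changed is not given by the ratio.

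**Figure D3:**
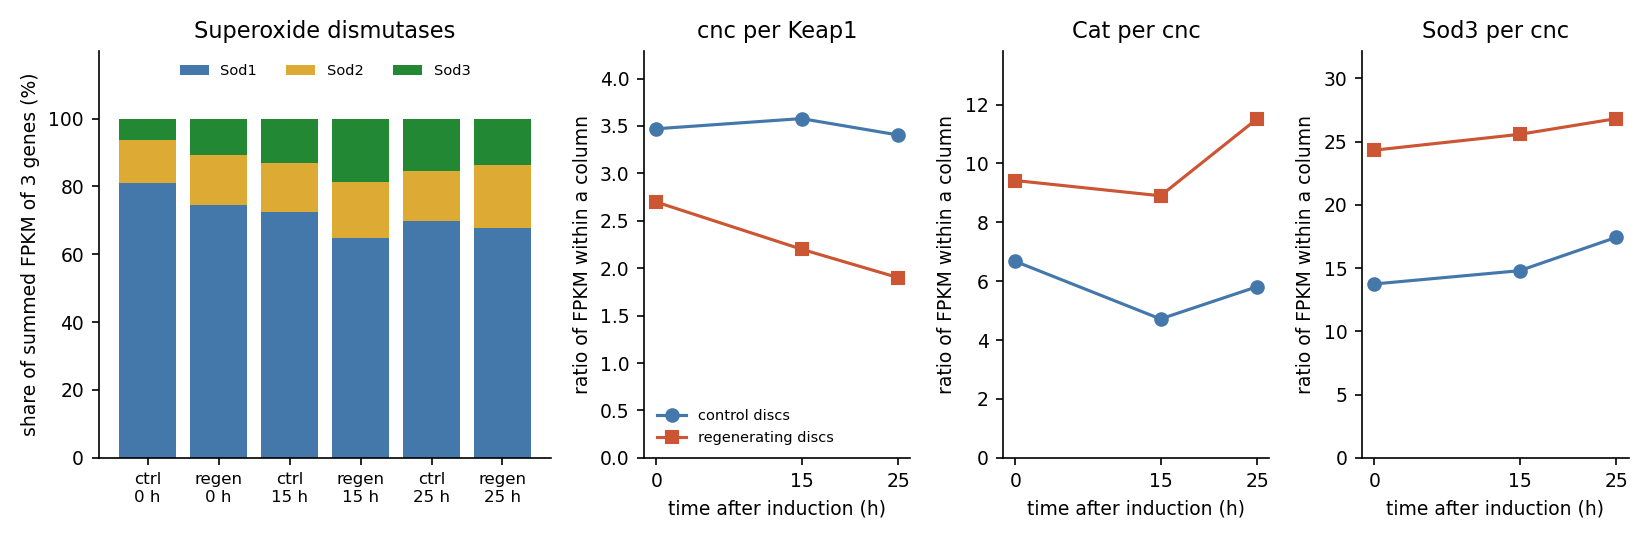
Ratios of FPKM within a column. Bars give the shares of Sod1, Sod2 and Sod3 in their summed FPKM in each of the 6 groups in percent, and lines the ratios of cnc to Keap1, Cat to cnc and Sod3 to cnc against time in h, with circles for control and squares for regenerating discs. Sod1 holds between 64.7% and 80.9% of the sum, and in the 3 line plots squares and circles do not overlap.

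Over time, 0 of the 8 genes passed the rule between 0 h and 15 h or between 15 h and 25 h, in control or in regenerating discs. In control discs the rule called 5.03% of all genes higher and 2.09% lower from 0 h to 15 h, and 1.01% and 5.3% from 15 h to 25 h. In regenerating discs it called 3.26% and 3.68% over the first interval and 2.86% and 2.58% over the second. From 0 h to 15 h the log2 change of Sod1 was -0.53 in control and -0.36 in regenerating discs, that of cnc was 0.53 in both, and that of Keap1 was 0.40 and 0.71. From 15 h to 25 h Sod3 was at 0.29 in control and -0.41 in regenerating discs and cnc at 0.05 and -0.44. After median-of-ratios scaling the change of cnc in control discs over that interval was -0.12. Scaled changes from 0 h to 15 h in control and regenerating discs were -0.92 and -0.60 for Sod1, 0.18 and 0.30 for cnc. For Keap1 they were 0.12 and 0.50. The comparisons of times share columns with those of regenerating and control discs.

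For each of the 8 genes the most similar patterns over the 6 columns were sought by the root mean square difference of centred log2 (FPKM + 1), among about 6323 genes above 0 in every column with a mean of at least 5 FPKM. The closest to Cat was MrgBP at a difference of 0.03, and the closest to Sod3 was XRCC1 at 0.02. The closest to cnc was dally at 0.04, to Sod1 mRpL47 at 0.05 and to Keap1 ADD1 at 0.04. The median difference to all genes compared was 0.30 for Cat, 0.32 for Sod3, 0.32 for cnc, 0.43 for Sod1 and 0.26 for Keap1. Among the 8 genes the closest pair was Sod2 and Gclm at 0.13, followed by Keap1 and Gclc at 0.16.

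Of the other genes that remove peroxide or reduce oxidised protein, 19 were matched and 14, 13 and 15 passed the filter at 0 h, 15 h and 25 h. At 15 h 3 of the 13 were higher, beside 5.95% of all genes, and 0 lower. These were SelR, a methionine sulfoxide reductase gene, with 11.6 FPKM in control against 29.7 FPKM in regenerating discs, and the peroxiredoxin genes Prx2, with 149 against 341 FPKM, and Prx3, with 38.1 against 83.6 FPKM. Prx2 and Prx3 were named after their values were seen. At 0 h SelR alone of the 14 was higher, at 13.2 and 27.9 FPKM, beside 7.47% of all genes. After scaling 0 of the genes were called at 0 h or 15 h. At 25 h 3 of the 15 were higher, beside 9.11% of all genes. They were Prx6b, Prx6c and Irc, an immune-regulated catalase gene, which control discs listed at 0 and regenerating discs at 1.98, 1.42 and 1.64 FPKM. Among the 12 genes above 0 in both columns at 25 h, 0 were called. The thioredoxin gene Trx2, the most abundant of the list, was at 1243 and 990.4 FPKM at 15 h and passed no rule. The medians of log2 ratio were 0.43, 0.33 and 0.35 in order of time, beside 0.47, 0.35 and 0.10 for all genes, and over the 12 genes above 0 in both columns at 25 h the median was 0.17.

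In the glutathione list of 9 genes 0 were called at 0 h, 3 were higher at 15 h and 1 at 25 h, with 0 lower and 0 called after scaling. The rule called 5.95% of all genes higher at 15 h and 9.11% at 25 h. Among genes above 0 in both columns at 25 h, as all 9 were, it called 1.63% higher. Mgstl, a membrane-bound glutathione transferase gene, was at 70.8 FPKM in control against 175 FPKM in regenerating discs at 15 h and at 98.0 against 199 FPKM at 25 h. Cth, the gene of cystathionine gamma-lyase, which yields cysteine, stood at 28.8 and 59.8 FPKM at 15 h, and GstO2 at 112 and 228 FPKM. The medians of log2 ratio were 0.47, 0.71 and 0.34, beside 0.47, 0.35 and 0.10 for all genes. Gss1 and Gss2, which encode glutathione synthetase, carry the same value in every column, so they were not measured apart. Both are counted among the 9, and their shared log2 ratio at 15 h, 0.71, is the median given for that time.

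Genes reported in Drosophila to be induced through CncC included 13 matched genes. Prx6b and Trxr1 among them are also in the list of genes that remove peroxide, so the call of Prx6b at 25 h counts in both lists. Of the 13 genes 9 passed the filter at each time. Of these 2 were higher at 0 h, 2 at 15 h and 5 at 25 h, with 0 lower, beside 7.47%, 5.95% and 9.11% of all genes higher. After scaling 1, 1 and 5 were higher, beside 2.34%, 1.64% and 8.47%. GstD1, a glutathione transferase gene whose reporter is in common use for CncC activity, was higher at all 3 times, with 1291, 1221 and 1440.2 FPKM in control and 2960 FPKM, 3250.2 FPKM and 3099 FPKM in regenerating discs, and was named after its values were seen. Its scaled log2 ratio was 0.66 at 0 h, 1.02 at 15 h and 1.06 at 25 h. GstE3 stood at 2.72 and 12.3 FPKM at 0 h and passed the rule both on deposited values and once columns were scaled by median of ratios. At 25 h GstD2, GstE3, GstE7 and Prx6b were listed at 0 in control discs, while regenerating discs held 3.79, 3.66, 3.54 and 1.98 FPKM. Among the 5 genes above 0 in both columns GstD1 alone was higher, beside 1.63% of all such genes. Other listed targets passed no rule, such as the heme oxygenase gene Ho, at 22.5 and 24.6 FPKM at 0 h, and the thioredoxin reductase gene Trxr1, at 135 and 215 FPKM at 25 h. The medians of log2 ratio were 0.49, 0.62 and 1.10, beside 0.47, 0.35 and 0.10 for all genes. Over the 5 genes above 0 in both columns at 25 h the median was 0.57.

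Of 6 partners of Keap1 and cnc, 0 were called at any time, against the shares of all genes given above. Their medians of log2 ratio were 0.46, 0.27 and -0.31, beside 0.47, 0.35 and 0.10 for all genes. The gene of the small Maf protein that pairs with CncC on DNA, maf-S, was at 250 FPKM in control against 368 FPKM in regenerating discs at 0 h, 215 and 199.96 FPKM at 15 h and 248 and 181 FPKM at 25 h. Of 7 other genes that make oxidants or peroxidases, 4, 4 and 5 passed the filter in order of time. Of these 0 were called at 0 h and 15 h, and Pxd was higher at 25 h, beside 9.11% of all genes. Regenerating discs then held 1.2 FPKM of Pxd and control discs listed it at 0. The NADPH oxidase gene Nox stood at 8.25, 12.9 and 12.7 FPKM in control and 9.32, 14.4 and 18.03 FPKM in regenerating discs. The gene mol, whose product matures Duox, stood at 2.76, 3.88 and 4.63 FPKM against 4.83, 5.46 and 5.78 FPKM. Of 7 genes that supply NADPH, Idh alone was higher, at 15 h, with 232 and 505 FPKM, beside 5.95% of all genes. It passed no rule after scaling.

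**Figure D4:**
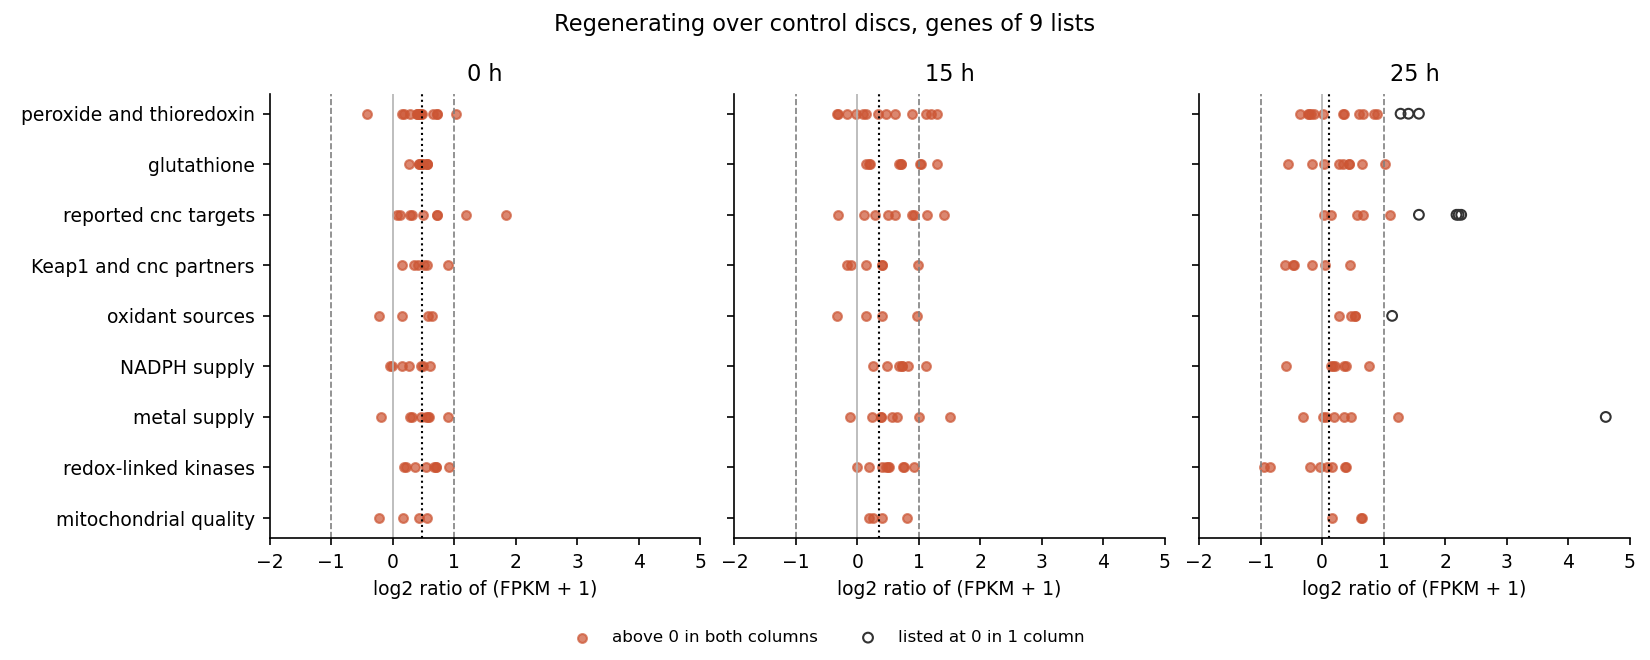
Log2 ratios of (FPKM + 1), regenerating over control discs, of the genes that passed the filter in 9 related lists at 0 h, 15 h and 25 h. Filled points are genes above 0 in both columns and open points genes listed at 0 in 1 column, the dotted line is the median of all genes tested and the dashed lines mark a log2 ratio of 1 in either direction. Open points appear at 25 h, where the control column lists 9462 genes at 0, and no point lies below a log2 ratio of -1.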

How the data were processed

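FPKM values were deposited by the authors as 1 column per group merged over replicates. STAR 2.4.0j, RSEM and dm6 are listed in the submitters' processing notes, with no role for any of them. The labels do not state how replicates were merged, and read depth is unknown. In 5 columns, whole numbers of at least 1000 ending in 5 were divided by 1000, and 1 value that could be read either way was set aside. The table's 1 other column matches no sample and was left out. Symbols came from reference tables, which paired 16912 identifiers and left 246, and coordinates from the BDGP6.54 annotation, the same assembly as dm6. Calculations used Python 3.11.15, numpy 2.4.6 and pandas 2.3.3 and were tested on simulated data.

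Groups followed the sample titles. The rule, a log2 ratio of at least 1 with a pseudocount of 1 and a filter of 1 FPKM, was applied to all genes in 7 comparisons. The members and lists were chosen with earlier results of these data known. Named were the 8 genes, up to 4 called genes per list with the largest ratio, and the 2 most similar patterns per gene, of which the closest is given for 5 of the 8. The fat body genes Fbp1, Obp99b and Lsp1beta also fell under this rule and are given above only within the counts of their list. Other uncalled genes of the lists were named after their values were seen: Trx2, Ho, Trxr1, maf-S, Nox, mol, Ccs, Ask1, p38a, Akt, foxo, Pink1, Gss1, Gss2, so, eya, Yp1 and MtnB. Alternatives were pseudocounts of 0.1 and 5, no filter, a filter of 5 FPKM, scaling by median of ratios or to 1000000, and rules of 1.5 and 4 times. The comparison of all 3 columns with all 3, its scalings, the ratios of all gene pairs, and the restriction to genes above 0 in both columns were added after the data were seen. Sequences and promoter motifs were not used here.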

Additional observations from a re-analysis of the deposited data

How the results depend on the processing

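No paired analysis was possible because each group has 1 merged column, and no replicate could be left out for the same reason. The count of 0 of 8 genes past the rule, in either direction, held in all 7 comparisons after median-of-ratios scaling. It was also 0 without a filter, with a filter of 5 FPKM, with a pseudocount of 5 and with the rule of 4 times. Those settings could not have added a call. All 8 genes already passed the filter of 1 FPKM, and a higher filter, pseudocount or rule can only remove calls. With columns scaled to 1000000, 1 gene was higher in regenerating discs at 0 h, Sod3, and 2 at 15 h, Sod3 and Cat. With a pseudocount of 0.1, 1 was higher at 15 h, Cat, whose log2 ratio was then 1.01. The rule of 1.5 times called 3 higher at 0 h (Sod3, Cat and Gclc), 3 at 15 h (Sod3, Cat and Keap1) and 1 at 25 h (Sod2), and from 0 h to 15 h 2 in control discs (Sod3 and Gclc) and 2 in regenerating discs (Sod3 and Keap1), with 0 lower. The shares of all genes called were not counted for the rule of 1.5 times, the scaling to 1000000 or the pseudocount of 0.1. At 0 h 65.6% of all genes tested had a lower log2 ratio than Cat, and at 15 h 75.8% than Keap1. Genes with larger ratios than these passed the rule of 1.5 times too, so its counts are not read as a result about the 8 genes. Median-of-ratios scaling changed the genes whose 3 regenerating columns lay above the 3 control columns from 3 to 1, Cat, and those below from 0 to 1, cnc. It turned the sign of 5 of 8 log2 ratios at 0 h, 4 at 15 h and 0 at 25 h, each within the rule. Among changes over time it turned the sign of 1 in control discs from 0 h to 15 h (Cat) and 4 from 15 h to 25 h (Sod2, cnc, Keap1 and Gclm), and in regenerating discs of 2 (Sod2 and Gclm) and 1 (Cat). Scaling to 1000000 turned 0 signs between regenerating and control discs. Over time it turned Gclm from 0 h to 15 h and Sod1 from 15 h to 25 h in control discs. In regenerating discs it turned Sod1 and Gclm from 15 h to 25 h. Without counts, the precision of low genes such as Keap1 and Gclc is unknown.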

Other observations

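Among 12 matched genes of metal supply, which serve the metal-bound superoxide dismutases and iron storage, 8 passed the filter at each time. Of these 0 were called at 0 h, 2 were higher at 15 h and 2 at 25 h, with 0 lower. The rule called 7.47%, 5.95% and 9.11% of all genes higher in order of time. The metallothionein gene MtnA, whose protein binds copper, held 11.4 FPKM in control against 34.4 FPKM in regenerating discs at 15 h and was listed at 0 against 23.4 FPKM at 25 h. The ferritin light chain gene Fer2LCH stood at 88.5 and 179 FPKM at 15 h and lay within the rule once scaled. The iron carrier gene Tsf1 stood at 28.6 and 68.5 FPKM at 25 h and passed it. Among the 7 genes above 0 in both columns at 25 h Tsf1 alone was higher, beside 1.63% of all such genes. Ccs, the copper chaperone gene of Sod1, stood at 43.4, 43.3 and 43.5 FPKM in control discs and 53.0, 39.9 and 49.7 FPKM in regenerating discs. After scaling 1 gene was lower at 0 h, MtnB, which held 0.9 FPKM in that control column as deposited and is listed at 0 elsewhere.

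Of 10 kinases and regulators linked to redox signalling, 8, 9 and 8 passed the filter in order of time. Of these 0 were called at any time, against the shares of all genes given above. Their median log2 ratios were 0.61, 0.49 and 0.02, beside 0.47, 0.35 and 0.10 for all genes. Ask1, a stress kinase that in mammals is freed when thioredoxin is oxidised, stood at 6.57, 8.94 and 11.4 FPKM in control and 11.1, 17.9 and 12.8 FPKM in regenerating discs. The stress kinase gene p38a stood at 6.0, 9.12 and 11.2 FPKM against 12.2, 16.0 and 10.9 FPKM. Close to the rule were p38a at 0 h, with a log2 ratio of 0.92, and Ask1 at 15 h, with 0.93. At 25 h Akt stood at 23.7 and 11.8 FPKM and foxo at 10.9 and 5.66 FPKM. Their log2 ratios of -0.95 and -0.84 lay just within the rule. Of 4 genes of mitochondrial quality control, 4, 4 and 3 passed the filter. Of these 0 were called at any time, against the shares of all genes given above. Pink1 stood at 12.2, 12.4 and 15.3 FPKM in control and 18.5, 22.6 and 24.2 FPKM in regenerating discs.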
